A study of Danio rerio with 3 samples.

Results

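The T cell receptor chain genes of zebrafish lymphocytes were followed across 3 single-cell libraries. The members are 3 of the 31903 features in the deposited matrices. trbc1 (FP236356.1 in the files, ENSDARG00000091233) is a constant region of the receptor beta chain. trgv7 (ENSDARG00000101672) is a variable segment of the gamma chain, and trdc (ENSDARG00000104684) is the constant region of the delta chain. The members were taken by name, not by their values. For trgv7 and trdc this was the symbol in the files, and for the beta chain feature its current Ensembl name. No other receptor segment found by name was of the beta chain, so that chain is read here from trbc1 alone. All fish carried lck:GFP, a transgene that puts green fluorescent protein under the control of the promoter of lck, a kinase gene active in T cells. Lymphocytes were dissociated from the thymus, the kidney marrow and the scale, a piece of skin, and sorted by fluorescence from the lymphoid and precursor scatter gates, bright cells from the thymus and dim cells from the marrow and scale. There was no treatment group, and the fish's age, their number and any pooling are not given in the sources used here.

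Most T cells carry a receptor of an alpha and a beta chain, and a smaller lineage carries a gamma and a delta chain instead. Each chain gene is assembled in the developing thymocyte from variable, joining and, for beta and delta, diversity segments by the recombinase of rag1 and rag2. In mice, gamma, delta and beta genes are assembled before the coreceptors CD4 and CD8 appear, and cells with a working beta chain then divide and go on to carry both coreceptors. Transcription can run through a constant region before or without a working rearrangement, so a transcript of a chain gene does not show that its protein is made. The markers that divide the cells here are rag1, the coreceptor genes cd4-1 and cd8b, and il2rb, a receptor chain for interleukins 2 and 15 that is borne by cytotoxic lymphocytes.

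The 3 libraries held 5932 cells, 4574 from the thymus, 983 from the marrow and 375 from the scale, and no barcode was shared between libraries. The median thymus cell had 1370 unique molecular identifiers (UMIs), the median marrow cell 4044 and the median scale cell 3178. A level, written CPM, is a gene's UMIs in a group of cells scaled to a group total of 1000000 UMIs, and brackets hold exact 95% intervals that cover counting error only. Each tissue had 1 library, so no test and no p-value can be given. Between tissues, a difference of tissue cannot be told apart from one of library. Nor, for the thymus, can it be told apart from one of fluorescence gate, or, for the marrow, from one of counting software. The marrow also had a higher UMI minimum for cells. Its shallowest called cell had 1398 UMIs, against 500 in the thymus and 501 in the scale. By markers other than the members, most thymus and marrow cells took a T cell label, but most scale cells did not. In the thymus 4380 cells fell in immature T cell-like clusters, and 551 marrow and 117 scale cells fell in T cell-like ones. A further 359 marrow and 172 scale cells fell in NK or cytotoxic-like clusters, and 85 scale cells in unnamed ones.

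The beta chain transcript was present in nearly all sorted cells of the thymus and in most cells of the other tissues. The thymus library held 39331 trbc1 UMIs, the marrow library 5492 and the scale library 1144. These counts gave 3171 CPM (3139–3202) for thymus cells, 1101 CPM (1072–1131) for marrow cells and 894 CPM (843–948) for scale cells. The thymus level was 2.88 times the marrow level (2.80–2.96) and 3.54 times the scale level (3.34–3.76). The scale level was 0.812 of the marrow level (0.761–0.866), short of 2-fold, while 7.8% of genes were at least 2-fold higher and 5.31% at least 2-fold lower in the scale. No 2 of these intervals meet, so by counting error alone the levels of the libraries ran in the order thymus, marrow, scale. For marrow and scale, the intervals of the shares of cells at equal depth, given below, overlap.

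A trbc1 UMI was seen in 4430 thymus cells (96.9%), 897 marrow cells (91.3%) and 311 scale cells (82.9%). With each cell thinned to 1000 UMIs, which left out 1344 thymus and 36 scale cells and no marrow cell, the shares were 88.4% (87.3–89.5), 63.3% (60.2–66.3) and 57.8% (52.4–63.1). Within a library the level varied widely from cell to cell. In the thymus the percentile 10 cell had 869 CPM, the median cell 4099 CPM and the percentile 90 cell 9118 CPM, and the highest count was 123 UMIs. The median marrow cell had 1137 CPM, and the median scale cell 742 CPM with a percentile 10 cell at 0. The percentile 90 cell of the marrow, at 2719 CPM, lay below the median thymus cell, but the 2 libraries had unequal UMI minimums. The 205 marrow barcodes from 500 UMIs up to the marrow minimum, which were left out, held trbc1 at 2757 CPM.

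**Figure D1:**
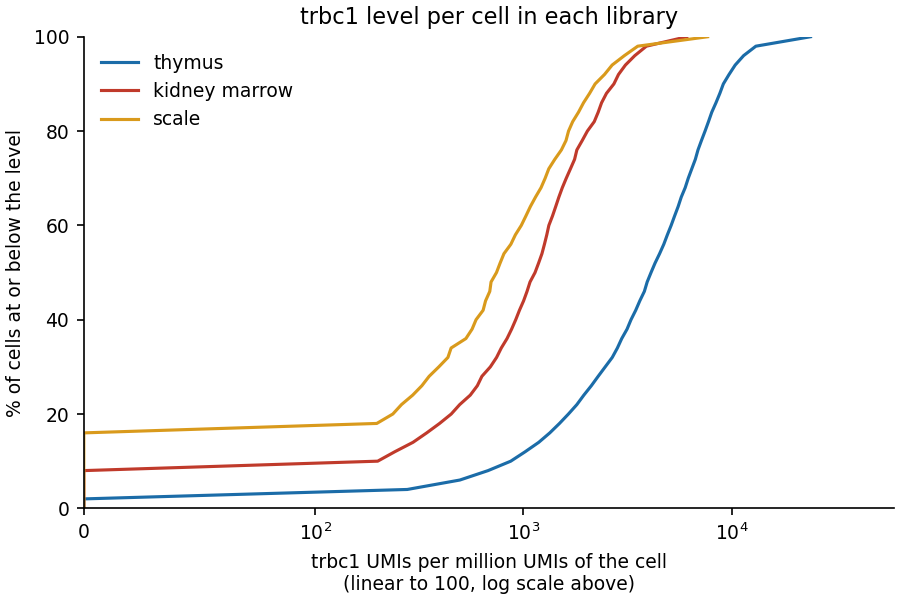
Cumulative share of cells (%) at or below a given trbc1 level per cell (CPM, linear to 100 and log above) in each library. The median thymus, marrow and scale cells lie at 4099, 1137 and 742 CPM, and the curves of the marrow and scale run to the left of the thymus.

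The delta chain transcript was found in a minority of cells in each library. Thymus cells held 569 trdc UMIs, marrow cells 107 and scale cells 22, or 45.9 CPM (42.2–49.8), 21.5 CPM (17.6–25.9) and 17.2 CPM (10.8–26.0). The thymus level was 2.14 times the marrow level (1.74–2.65) and 2.67 times the scale level (1.74–4.29), and the scale and marrow intervals overlapped (ratio 0.802, 0.482–1.28). The share of cells with a trdc UMI did not follow this order. It was 6.65% of thymus, 6.82% of marrow and 4.27% of scale cells, and after thinning 2.51% (2.00–3.11), 2.75% (1.82–3.97) and 1.47% (0.481–3.41). When each cell weighed the same, the ratio of thymus to marrow was 1.26, so the size of the difference depended on how cells were weighted.

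The gamma segment trgv7 was near the limit of detection. It had 56 UMIs in 51 thymus cells, 15 UMIs in 8 marrow cells and 1 UMI in 1 scale cell, or 4.51 CPM (3.41–5.86), 3.01 CPM (1.68–4.96) and 0.782 CPM (0.0198–4.36). The ratios of thymus to marrow (1.5, 0.837–2.86) and of thymus to scale (5.77, 0.995–232) both had intervals that span 1, so no difference between libraries was detectable at this depth. One marrow cell held 5 of the 15 UMIs, and with the highest cell of each library left out the ratio of thymus to marrow was 2.13 (1.07–4.70), so no order is read for trgv7. trbc1 and trdc were at least 2-fold higher in the thymus in both comparisons, and so were 25.2% of all genes with enough UMIs against the marrow and 26.8% against the scale, while 8.28% and 10.8% were at least 2-fold lower. The members' difference between tissues therefore lies in a direction that many other genes shared.

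**Figure D2:**
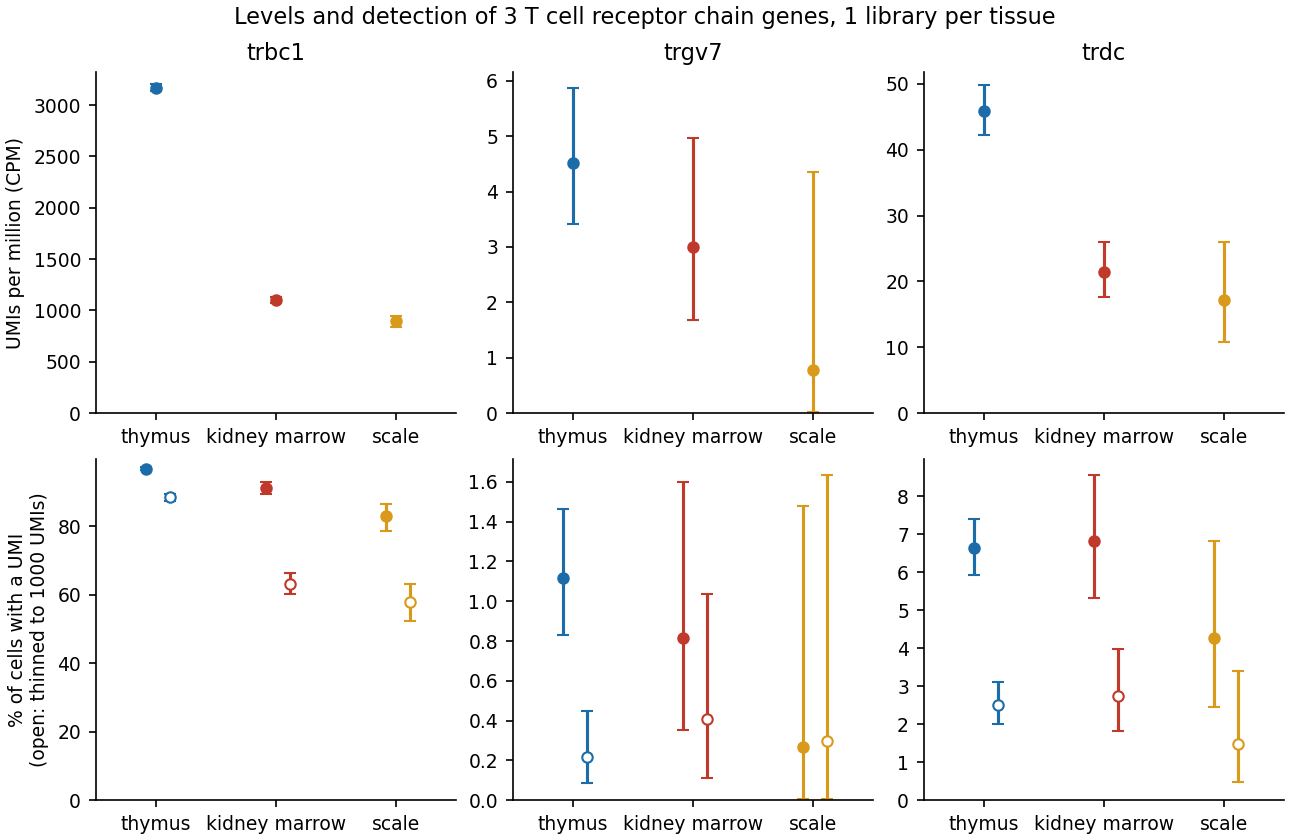
Top: level of trbc1, trgv7 and trdc in each library (CPM, axes differ and start at 0). Bottom: % of cells with a UMI, filled for all cells and open after thinning to 1000 UMIs; bars are exact 95% counting intervals, and trbc1 falls in the order thymus, marrow, scale (3171, 1101 and 894 CPM) while the trgv7 intervals of all 3 libraries overlap.

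A level in cells that should not make the genes was read from other cell types caught in the sort. In the thymus, 12 erythroid-like cells with a median of 1260 UMIs held trbc1 at 1406 CPM (918–2060, from 26 UMIs), and 8 of them (66.7%) had a UMI. The 12 macrophage or dendritic-like cells of the thymus, with a median of 4914 UMIs, held trbc1 at 1124 CPM (884–1410). Over all libraries rag1 was seen in 24% of cells of the erythroid-like cluster and 50% of the macrophage or dendritic-like cluster. No thymus barcode was called a doublet, so background and doublets with thymocytes cannot be told apart in these cells. In the marrow, 13 erythroid-like cells with a median of 7088 UMIs had no trbc1 UMI, which allows up to 28.1 CPM. No cell of these types in either library had a trgv7 or trdc UMI. The 0 counts allow up to 162 CPM in the thymus erythroid-like and 45.0 CPM in the thymus macrophage or dendritic-like cells. With 28.1 CPM allowed in the marrow erythroid-like cells, a background of trgv7 or trdc below these limits could go unseen. Marrow barcodes of 1 to 99 UMIs, which mostly hold no cell, had trbc1 at 950.03 CPM and trdc at 6.15 CPM (3.94–9.15). A trbc1 UMI in a single thymus cell is therefore not by itself a sign of expression, and the presence of trbc1 below carries this background. The marrow barcodes of 1 to 99 UMIs give the make-up of background, not its amount within a called cell, which was not measured. For trbc1 the 13 erythroid-like marrow cells had no UMI, against 950.03 CPM in those barcodes. At Leiden resolution 0.5, 14 neutrophil or granulocyte-like marrow cells also had no UMI of any member (0–16.2 CPM for each). How much of a marrow trdc level near 6.15 CPM is background was therefore not read. The scale had no cell of these types, so its background was not read.

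Outside the thymus, trbc1 in NK or cytotoxic-like cells stood somewhat below its level in T cell-like cells, both read without a correction for background. In the marrow, trbc1 stood at 1512 CPM in T cell-like and 1059 CPM in NK or cytotoxic-like cells, a ratio of 0.70 (0.661–0.742), and 93.3% of the cytotoxic cells had a UMI. In the scale, it stood at 1222 and 851 CPM, a ratio of 0.697 (0.612–0.794). The cytotoxic class held trbc1 at 1066 CPM in cluster 15, 619 CPM in cluster 17 and 588 CPM in cluster 20, over all libraries. Cluster 19, 82 scale cells left unnamed, held it at 699 CPM and is in neither class. trdc differed more: it was 39.3 CPM in T cell-like and 5.95 CPM in cytotoxic marrow cells, a ratio of 0.151 (0.0702–0.292), and it was at least 2-fold lower, as were 2.45% of genes, with 5.87% at least 2-fold higher. In the scale 15 trdc UMIs lay in T cell-like and 6 in cytotoxic cells, a ratio of 0.213 (0.0677–0.581) from too few UMIs to be called. Cluster 11, a T cell-like cluster described further on, held 55 of the 90 T cell-like trdc UMIs of the marrow and 11 of the 15 of the scale. Without it the trdc ratio was 0.339 (0.15–0.70) in the marrow, from 10 and 35 UMIs, and 0.731 (0.173–3.52) in the scale, while that of trbc1 was 0.677 and 0.704. In the scale 2.58% of genes were at least 2-fold lower and 21.3% at least 2-fold higher in cytotoxic cells. The clusters behind these classes were made without the members and other receptor segments, but with the markers that name them.

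In the thymus the members were then read by coreceptor status. The 2426 cells with UMIs of both cd4-1 and cd8b held trbc1 at 4208 CPM, the 532 cells with cd4-1 alone at 2827 CPM, the 823 with cd8b alone at 2757 CPM and the 793 with neither at 1441 CPM. The beta chain transcript was thus highest in double-positive cells and lowest in cells without a coreceptor UMI, 2.92 times lower. That lowest level was near the 1406 CPM (918–2060) of the thymus's erythroid-like cells, which may include doublets with thymocytes. trdc was highest in cells with neither, at 76.7 CPM, and lowest in cells with cd8b alone, at 33.0 CPM, and with both, at 34.7 CPM, with 46.1 CPM in cells with cd4-1 alone. The level of trdc with neither over both was 2.21 (1.83–2.67), and that of trbc1 was 0.342 (0.331–0.354). trbc1 was at least 2-fold lower and trdc at least 2-fold higher in cells with neither, as were 7.62% and 4.36% of genes. trgv7 stood at 8.59 CPM in cells with neither and 2.89 CPM in cells with both, a ratio of 2.97 (1.57–5.75) from too few UMIs to be called.

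Both directions held when each cell weighed the same and when status was taken after thinning, but the sizes moved. With equal weight the ratio of neither to both was 0.533 for trbc1, 4.81 for trdc and 10.9 for trgv7. After thinning, 98.5% of cells with both coreceptors and 71.9% of cells with neither had a trbc1 UMI, and 0.916% and 5.31% had a trdc UMI. The median cell with neither coreceptor had 1633 UMIs and the median cell with both had 1414.

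No difference in the members was detectable between cells with cd4-1 alone and cells with cd8b alone. Of the 532 cells with cd4-1 alone 380 also had a rag1 UMI, and of the 823 with cd8b alone 673 did. With median depths of 1414 and 1164 UMIs, a coreceptor that was missed cannot be told from one not expressed. These groups are therefore not shown to be single-positive cells. Cells with cd4-1 alone over cells with cd8b alone gave a trbc1 ratio of 1.03 (0.982–1.07), a trdc ratio of 1.40 (0.963–2.03) and a trgv7 ratio of 1.05 (0.263–3.85). Each interval spans 1, and the trbc1 ratio moved between 0.949 and 1.13 with the definition of status. In this comparison 0.192% of genes were at least 2-fold higher and 0.447% at least 2-fold lower, and no member was among them.

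Pooled over all thymus cells, trbc1 was higher and trdc lower in cells with rag1, but neither direction held across coreceptor status. The 3882 thymus cells with a rag1 UMI held trbc1 at 3264 CPM and the 692 without at 2497 CPM, a ratio of 1.31 (1.26–1.35), which became 2.14 when status was taken after thinning. trdc stood at 43.4 CPM with rag1 and 63.9 CPM without, a ratio of 0.678 (0.544–0.853). trgv7 stood at 4.68 and 3.30 CPM, a ratio of 1.42 (0.571–4.56) that turned to 0.422 when each cell weighed the same, so no direction is read for it. No member reached 2-fold, against 5.23% of genes higher and 4.01% lower in cells with rag1.

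When rag1 and coreceptor status were crossed, the ratio of cells with to cells without rag1 differed from one coreceptor status to the next. For trdc it was 0.588 (0.446–0.781) in cells with neither coreceptor, 1.46 (0.689–3.55) with cd8b alone, 2.19 (1.03–5.35) with cd4-1 alone and 4.97 (0.882–197) with both, the last from 215 UMIs and 1 UMI. For trbc1 it was 0.634 (0.595–0.676) with neither, 1.18 (1.09–1.27) with cd8b alone, 1.05 (0.972–1.13) with cd4-1 alone and 0.890 (0.824–0.963) with both. The pooled direction of trdc was thus seen in cells with neither coreceptor, and that of trbc1 with an interval above 1 in cells with cd8b alone. The cells with neither coreceptor and with rag1, 507 cells with a median of 1937 UMIs, held trdc at 65.8 CPM and trbc1 at 1268 CPM. The cells with neither and without rag1, 286 cells with a median of 1420.5 UMIs, held trdc at 111.8 CPM (88.7–139) and trbc1 at 1999 CPM. Both receptor transcripts were thus higher in the coreceptor-negative cells without rag1. The highest trbc1 of any of the 8 combinations, 4715 CPM, was in the 104 cells with both coreceptors and no rag1 UMI, where trdc stood at 7.12 CPM and no trgv7 UMI was seen.

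**Figure D3:**
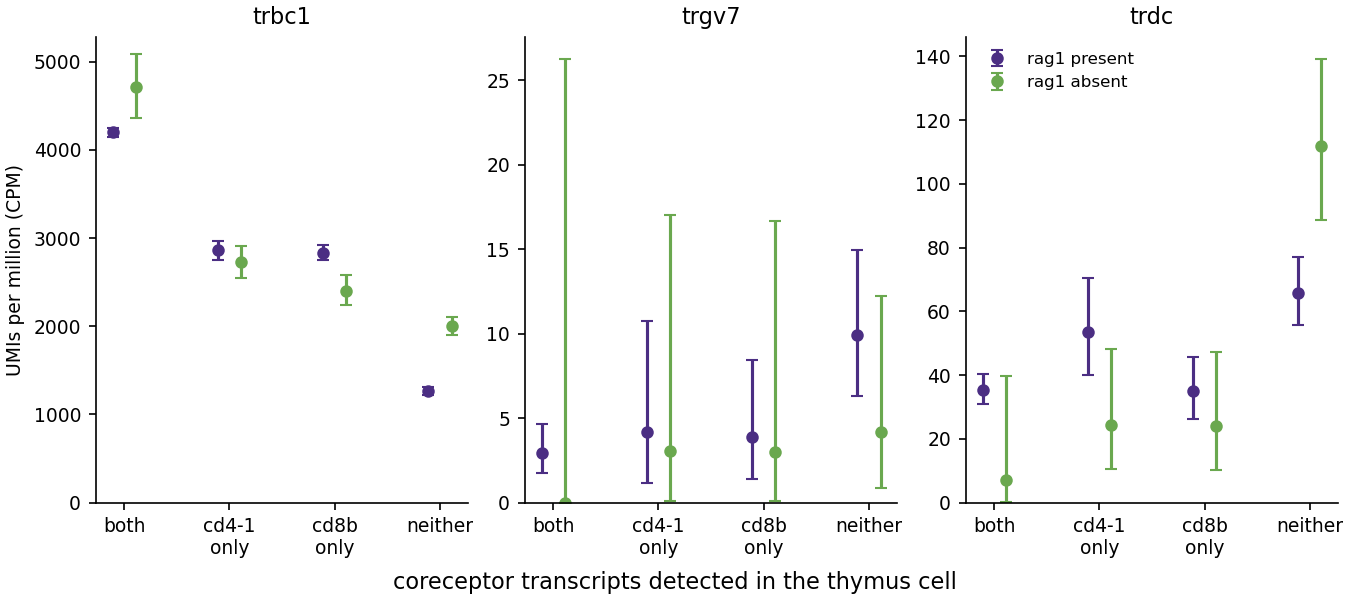
Level of trbc1, trgv7 and trdc (CPM, axes differ and start at 0) in thymus cells by coreceptor transcripts and rag1, with exact 95% Poisson intervals. trbc1 is highest in cells with both coreceptors, and trdc is highest, at 111.8 CPM, in cells with neither coreceptor and no rag1.

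The marrow and scale had almost no recombinase: 1 marrow cell and no scale cell had a rag1 UMI, and that cell held no member. No marrow cell had UMIs of both coreceptors. The 198 marrow cells with cd4-1 held trbc1 at 1311 CPM (1245–1379), the 42 with cd8b at 1779 CPM (1581–1995) and the 743 with neither at 1007 CPM. The level with cd4-1 was 0.737 of that with cd8b (0.649–0.838), short of 2-fold, while 9.55% of genes were at least 2-fold higher and 1.13% at least 2-fold lower. All 15 trgv7 UMIs of the marrow lay in cells with neither coreceptor, and trdc stood at 24.6 CPM there, at 14.2 CPM (16 UMIs) with cd4-1 and at 0 with cd8b. For cells with cd8b over those without, the trdc interval ran from 0 to 1.03 and spans 1. In the scale all 22 trdc UMIs and the single trgv7 UMI lay in the 336 cells with neither coreceptor, which were most of the library. For scale cells with cd4-1 over those without, the trdc interval ran from 0 to 2.21, so no difference was detectable. The 32 scale cells with cd4-1 held trbc1 at 1126 CPM, 1.29 times the level of the cells without (1.05–1.57), where 1.46% of genes were at least 2-fold higher and 20.8% at least 2-fold lower. The 7 scale cells with cd8b held it at 934 CPM.

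In the marrow the level of trdc was lower in cells with il2rb, a difference that was smaller outside cluster 11. The 367 marrow cells with an il2rb UMI and the 616 without had near depths, with medians of 4446 and 3896.5 UMIs. trbc1 stood at 1103 CPM with il2rb and 1100.1 CPM without, a ratio of 1.00 (0.948–1.06) that became 0.822 when each cell weighed the same. trdc stood at 10.3 CPM with and 27.5 CPM without, 2.67 times lower, and 8.03% of genes were at least 2-fold lower and 3.99% at least 2-fold higher with il2rb. Outside cluster 11 the trdc ratio was 0.628 (0.314–1.19), from 14 and 38 UMIs, with an interval that spans 1, and the trbc1 ratio was 1.01 (0.95–1.06). trgv7 had 1 UMI with il2rb and 14 without, a ratio of 0.132 (0.00313–0.870). Of the marrow's trgv7 UMIs 14 lay in 7 cells of cluster 11 and 1 outside it, and 1 cell held 5, so no direction is read for trgv7. In the scale, trbc1 stood at 847 CPM in the 163 cells with il2rb and 943 CPM in the 212 without, a ratio of 0.898 (0.798–1.01). The scale's trdc was split as 10 and 12 UMIs, a ratio of 0.811 (0.314–2.05), so no difference was detectable there, and 7.62% of genes were at least 2-fold higher and 2.65% at least 2-fold lower. In the thymus only 25 cells had il2rb, with a median of 4658 UMIs, and their trbc1 was 0.585 of that of other cells (0.520–0.655), where 16.4% of genes were at least 2-fold lower and 11.6% at least 2-fold higher. Their trdc, 1 UMI against 568, was 0.134 of that of other cells (0.00338–0.749) and was called at least 2-fold lower from that 1 UMI.

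The gamma segment trgv7 and trdc were found together more often than the product of their shares, but the cells that held them were also deep. In the thymus, 22 cells held both trgv7 and trdc, where the product of the single shares gives 3.39 cells. trdc was present in 43.1% of the cells with trgv7 and 6.23% of those without. Those 22 cells had a median of 8978.5 UMIs, against 1299 in cells with neither transcript. Among the 653 thymus cells of at least 5000 UMIs, thinned to that number, 4 cells held both and the product gives 2.53. There trdc was present in 30.8% of the cells with trgv7 (9.09–61.4) and 19.2% of those without (16.2–22.5). The intervals overlap, so at equal depth a joint excess of trgv7 with trdc was not detectable from 13 cells with trgv7. The 5 other gamma variable segments, given further on, stood higher with trdc in cells of at least 5000 UMIs, at 2.56 times (1.61–4.12). Thinned to 1000 UMIs, 1 thymus cell held both. In the marrow, 1 of the 8 cells with trgv7 held both, and in the scale none did. For the other gamma segments the marrow ratio with over without trdc was 15.6 (8.63–28.1).

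Of the 304 thymus cells with trdc, 97.4% held trbc1, and the 296 cells with both stood beside 294 from the product of the shares. Since 96.9% of all thymus cells and 66.7% of the erythroid-like ones had a trbc1 UMI, joint presence says little about the 2 chains in 1 cell. Thinned to 1000 UMIs, trdc was present in 2.14% of cells with trbc1 (1.64–2.74) and 5.35% of those without (3.30–8.14). Thinned to 5000 UMIs, it was present in 19.5% of cells with trbc1 (16.5–22.8) and 17.4% of those without (4.95–38.8). The latter share is 4 of 23 cells, too few to show whether the difference is kept at that depth. In the marrow 64 cells held both, beside 61.1 from the product, and in the scale 13, beside 13.3.

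The level of trbc1 gave a wider range than its presence. Thymus cells with neither trgv7 nor trdc held trbc1 at 3543 CPM, those with trdc alone at 1779 CPM, those with trgv7 alone at 1224 CPM and those with both at 1324 CPM. In cells with trgv7 the trbc1 level was thus near that of the thymus's macrophage or dendritic-like (1124 CPM) and erythroid-like cells (1406 CPM). The level in cells with trdc over cells without was 0.497 (0.481–0.514). Thymus cells with trdc had a median of 6389 UMIs, against 1301 without. Among thymus cells of at least 5000 UMIs the ratio was 0.911 (0.873–0.95), where cells with and without trdc still had medians of 10067.5 and 7868 UMIs. In the marrow, where cells with and without trdc had medians of 3928 and 4068 UMIs, the ratio was 1.16 (1.05–1.29), above 1.

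Across clusters the beta and delta transcripts had their highest levels in different clusters. Clusters were formed without the members, and 21 were found. trbc1 was highest, between 4897 and 6875 CPM, in thymus clusters 0, 1, 4, 5 and 7, in which cd4-1 and cd8b were each seen in most cells. In the same clusters trdc lay between 6.58 and 15 CPM. trdc lay between 39.3 and 79.5 CPM in clusters 2, 3, 8 and 9, whose leading genes serve division: mcm4, mcm5, orc6 and cdc6 of DNA replication in cluster 3, and aspm, ccnb1 and cdc20 of mitosis in cluster 2. trbc1 there lay between 1254 and 2725 CPM. Clusters 2, 3, 8 and 9 were also the deeper ones, with median depths from 1948 to 8773.5 UMIs, against 981 to 1287 UMIs in the clusters of high trbc1, and the part of depth was not tested. Of the 4574 thymus cells, 230, 422 and 263 were in clusters 2, 3 and 8. These 3 clusters held 198 of the 304 thymus cells with trdc and 41 of the 51 with trgv7. Cluster 9, with 205 thymus cells, held 32 cells with trdc and 1 with trgv7. These counts were not thinned to equal depth.

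Both trgv7 and trdc had their highest level in cluster 11, a T cell-like cluster of 46 thymus, 78 marrow and 8 scale cells. The cluster was led in part by sox13, a transcription factor of gamma delta T cells in the mouse. trdc stood there at 565 CPM in thymus, 186 CPM in marrow and 381 CPM in scale cells, and at 40.7, 11.1 and 8.80 CPM in the other cells of those libraries. trgv7 had 7, 14 and 1 UMIs in the cluster, or 57.3, 47.4 and 34.6 CPM. Cluster 11 held 93.3% of the marrow's trgv7 UMIs, 51.4% of its trdc UMIs and 12.1% of the thymus's trdc UMIs. trbc1 was present there as well, at 2293, 1152 and 1351 CPM. Its 78 marrow cells had no UMI of rag1, cd4-1, cd8a or cd8b. This was not so in the thymus, where 24 of its 46 cells (52.2%) had rag1, at 811 CPM. Of these 46 cells, 14 had cd4-1, 9 had cd8b and 3 had cd8a. sox13 was not particular to cluster 11, where it stood at 513 CPM. It stood at 2425 CPM in cluster 18, 8 unnamed cells of which 7 came from the marrow. Cluster 18 had no trgv7 or trdc UMI (0–147 CPM for each) and was too small to enter the likeness below.

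**Figure D4:**
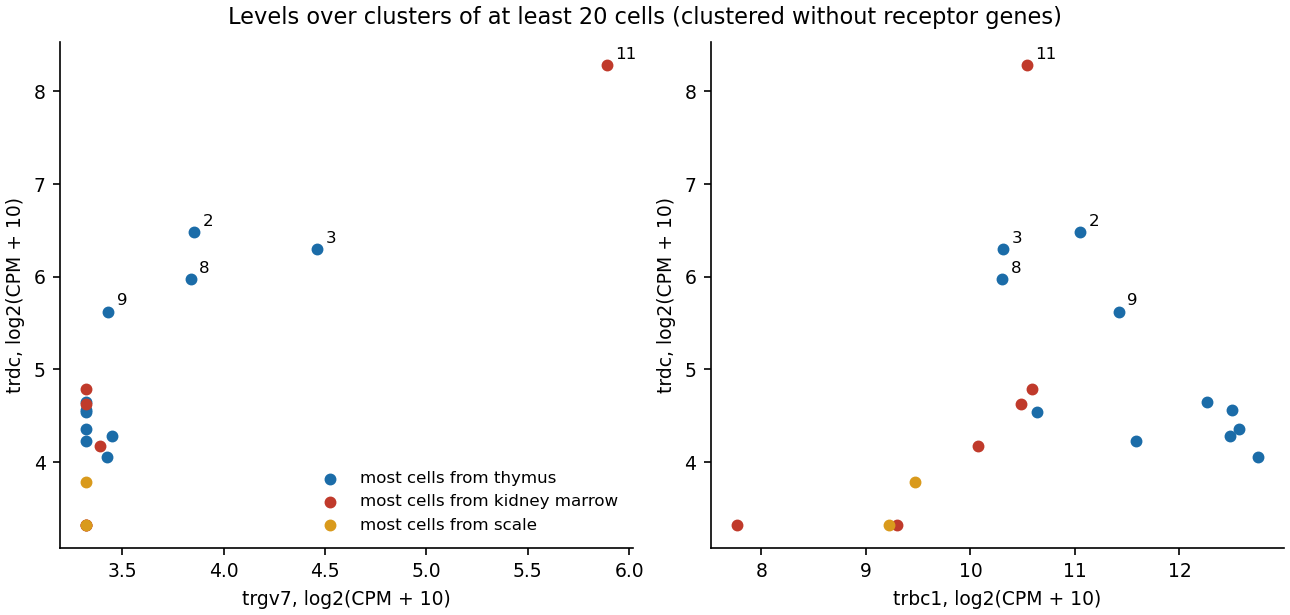
Level of trdc against trgv7 (left) and trbc1 (right) as log2(CPM + 10), 1 point per cluster of at least 20 cells, coloured by the library that gave most of its cells. Cluster 11 has the highest trgv7 and trdc, clusters 2, 3, 8 and 9 follow in trdc, and the 5 clusters highest in trbc1 have low trdc.

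Likeness to each member was measured as the Pearson correlation of log2(CPM + 10) across the 19 clusters of at least 20 cells, over 6399 genes. Clusters share libraries and differ in depth, so the values are descriptive. The genes most like trbc1 were si:dkey-81j8.6 (0.969), lck (0.967), znf609a (0.95), cdkn1d (0.946) and rttn (0.938). lck is the kinase that starts receptor signalling, and its promoter drives the reporter used in the sort. The genes most like trgv7 were sox13 (0.892), etv5a (0.868), si:dkeyp-13d12.23 (0.858), trdc (0.855) and ptgis (0.801). Cluster 3 held 29 trgv7 UMIs, cluster 11 held 22, cluster 8 held 12 and cluster 2 held 5, and no other cluster held more than 1. The correlations of trgv7 rest on these few clusters, and trgv7 itself had fewer than the 200 UMIs asked of the genes compared with it. Those most like trdc were si:dkeyp-13d12.23 (0.872), etv5a (0.830), ptgis (0.826), sox13 (0.802) and rplp0 (0.712). The correlation of trbc1 was 0.177 with trdc and -0.0622 with trgv7.

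Cells with a trdc UMI were next compared gene by gene with cells of the same library without one. In the thymus 74 genes were at least 2-fold higher and 531 lower of 7189 (1.03% and 7.39%). The highest were sox13 at 8.85 times (6.82–11.6), the ETS factor gene etv5a at 7.34 times (6.12–8.81), the Src family kinase gene blk at 7.10 times (5.05–10.1), si:ch211-207n23.2 at 6.61 times and si:dkeyp-13d12.23 at 3.48 times. The lowest were the globin gene hbba1, 18.4 times lower, si:ch211-5k11.8, 18.1 times lower, the immediate early gene jun, 10.5 times lower, syt11a, 6.85 times lower, and the desmosome gene pkp2, 6.64 times lower. Within cells of at least 5000 UMIs, 186 with and 467 without trdc, the counts fell to 7 genes higher and 46 lower of 4828 (0.145% and 0.953%). sox13 was 17.4 times higher there (9.31–36.11), etv5a 9.30 times (6.65–13.3) and si:ch211-207n23.2 5.35 times (3.44–8.51), while si:dkeyp-13d12.23, at 1.82 times (1.59–2.08), was short of 2-fold. The interval spanned 1 for hbba1, at 0.760 (0.424–1.31), and for si:ch211-5k11.8, at 0.808 (0.463–1.36), and jun stood at 0.146 (0.0384–0.394). Outside cluster 11, with thymus cells of any depth, sox13 was 5.35 times higher with trdc (3.74–7.67) and si:ch211-207n23.2 2.84 times (2.04–3.91). There etv5a stood at 5.40, blk at 5.65 and si:dkeyp-13d12.23 at 3.15 times, and each of these genes was still called higher.

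Of 10 measured genes of a gamma delta T cell list, 3 were at least 2-fold higher with trdc (sox13, blk and gata3, a transcription factor of T cell commitment, at 2.08 times) and 2 lower (il23r and mafa). Of 10 measured genes of the recombination stage, 5 were lower and none higher: cd8a stood at 0.22, cd4-1 at 0.25, cd8b at 0.28 and rag1 at 0.40 of the level without trdc, and tcf12 was the other. The list's median log2 ratio was -1.10, beside -0.0919 over all genes. Within cells of at least 5000 UMIs no gene of the recombination list was called, with a median log2 ratio of -0.274. cd8a stood there at 0.498 (0.404–0.608), cd8b at 0.579 (0.522–0.640), cd4-1 at 0.584 (0.511–0.665) and rag1 at 0.70 (0.670–0.731) of the level without trdc, while sox13 was called higher among the 5 gamma delta genes measured there.

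In the marrow 53 genes were at least 2-fold higher and 347 lower with trdc, of 3637 (1.46% and 9.54%), and the counting interval left out 1 for all 53 and for 246 of the 347. The comparison rests on 67 cells with trdc, and with 3 UMIs added to each group alike the counts were 134 higher and 150 lower. The highest were si:dkey-78l4.2 at 25.5 times (17.1–38.5), si:dkey-21h14.8 at 18.1 times (12.3–26.7), si:dkeyp-13d12.23 at 15.4 times (12.9–18.4), si:ch211-207n23.2 at 6.86 times (5.44–8.62) and sox13 at 6.18 times (4.23–8.90). The lowest were haemoglobin genes, led by hbba2, 57.4 times lower, hbaa1, 42.4 times lower, and hbba1. Of 6 measured gamma delta genes, blk and sox13 were higher and none lower, and of 10 NK or cytotoxic genes, 6 were lower and none higher. Of other cell types' markers, 6 of 7 erythroid, 3 of 3 B cell and 5 of 6 neutrophil genes were lower with trdc, so cells of those types sit among the cells without it. Summed, the erythroid list stood at 188.7 CPM with and 6778 CPM without trdc, the neutrophil list at 562.9 and 6195 CPM and the B cell list at 0 and 1237 CPM, and their part in the gene counts was not tested. None of the 8 measured genes of the receptor complex and its proximal signalling reached 2-fold. Outside cluster 11, 108 genes were higher and 391 lower of 3480 (3.1% and 11.2%). There sox13 had 1 UMI in marrow cells with trdc and 60 in those without, a ratio of 0.440 (0.0110–2.55), while si:dkeyp-13d12.23 stood at 24.8 times the level without trdc. There si:dkey-78l4.2 had 0 and 7 UMIs, si:dkey-21h14.8 0 and 4, and si:ch211-207n23.2 stood at 0.455 (0.0545–1.68). These 3 genes and sox13 are among the leading genes that set cluster 11 apart. Leaving that cluster out takes away most of their marrow UMIs, so the loss of their high ratios was given by the choice of cells. Outside the cluster 2 of 10 measured NK or cytotoxic genes were called higher, gzmk at 2.02 times (1.65–2.46) and gzma at 2.23 times (1.47–3.26), both granzyme genes. Against these, 6 of the list were lower: nitr5, ccl36.1, prf1.9, ccl38.6, nkl.4 and nkl.3. The list's median log2 ratio was -1.59, beside 0.0322 over all genes, and 32 cells outside the cluster held trdc.

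**Figure D5:**
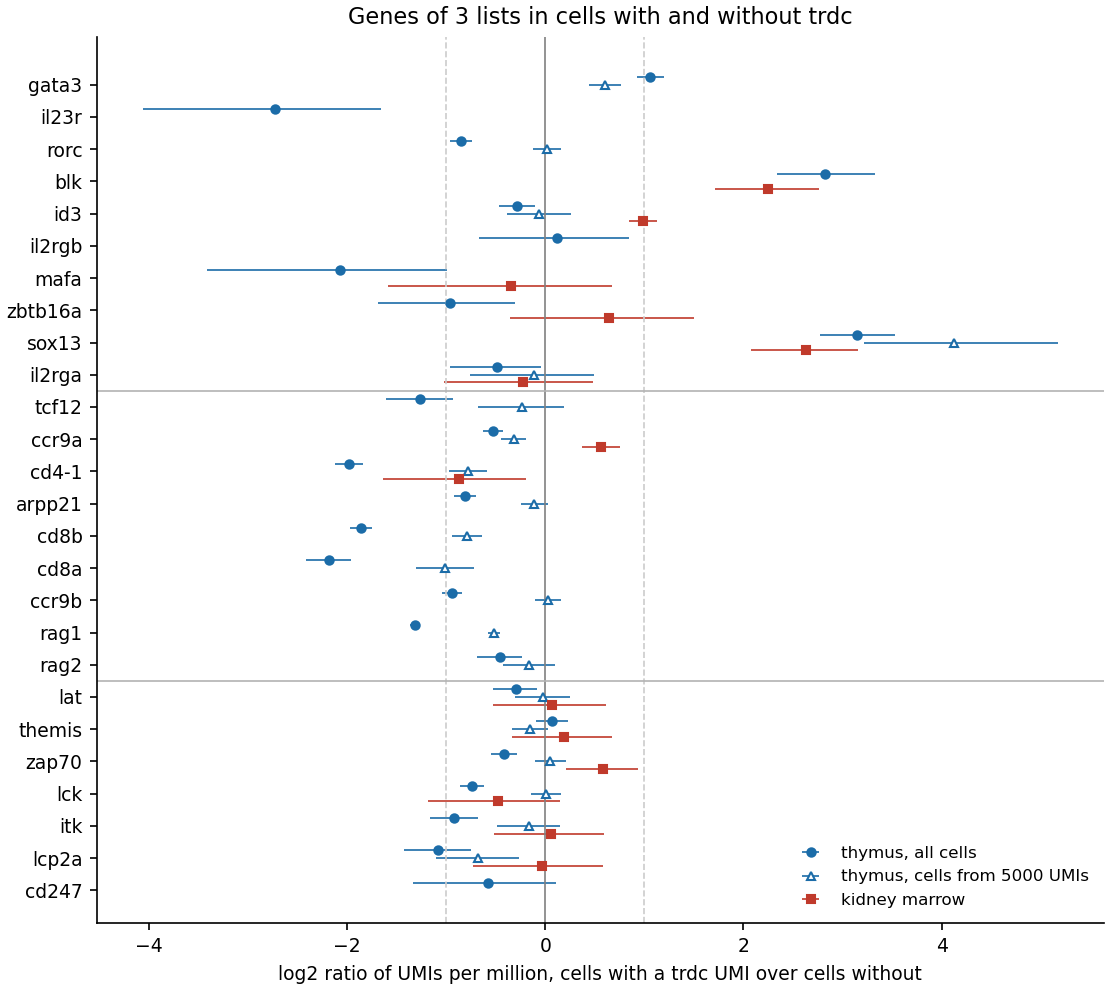
log2 ratio of levels in cells with over cells without a trdc UMI, with exact 95% intervals, for genes of the gamma delta (top), recombination stage (middle) and receptor complex (bottom) lists; dashed lines mark 2-fold. sox13 lies above 2-fold in all 3 comparisons, and the recombination genes that lie below 2-fold in all thymus cells are nearer to no change in thymus cells from 5000 UMIs.

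Other receptor segments were summed by family in cells with and without trdc. The 5 other gamma variable segments together stood at 27.6 CPM in thymus cells with trdc and 7.83 CPM in those without, a ratio of 3.53 (2.5–4.96), and at 2.56 (1.61–4.12) within cells of at least 5000 UMIs. In the marrow they stood at 83.2 and 5.35 CPM, a ratio of 15.6 (8.63–28.1), and 29.9% of cells with trdc (19.3–42.3) had a UMI, against 2.29% of those without (1.43–3.48). In the scale 5 UMIs lay in the 16 cells with trdc and 4 in the other 359, a ratio of 24.7 (5.32–125). The 38 alpha joining segments stood at 89.6 CPM in marrow cells with trdc and 9.63 CPM in those without, a ratio of 9.30 (5.59–15.2), while in thymus cells of at least 5000 UMIs their ratio was 1.03 (0.701–1.5). This sum is nearly 1 feature, traj1 (BX681417.2 in the files), which held 62 of its 73 UMIs in the marrow and 259 of 300 in the thymus. The ratio of traj1 alone was 12.3 (7.19–20.9) in the marrow and 1.11 (0.750–1.62) in the deep thymus cells. The 63 alpha or delta variable segments stood at 0.344 (0.280–0.418) of the level without trdc in the thymus, at 0.803 (0.605–1.06) in its deep cells and at 0.850 (0.433–1.52) in the marrow. In the zebrafish, as in mammals, the alpha and delta genes share a locus, and the deposited counts do not tell a joining segment's own transcript from one that runs through it.

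Thymus cells with a trgv7 UMI had 225 genes at least 2-fold higher and 1087 lower (3.13% and 15.1%), and the interval left out 1 for 190 and 535 of them. Among their highest genes were si:ch211-207n23.2 at 10.1 times, the glycerol channel gene aqp3a at 6.47 times, si:dkeyp-13d12.23 at 5.36 times and vsnl1b at 4.73 times. Of the gamma delta list gata3 and blk were higher and il23r, rorc and mafa lower, and of the recombination list 5 of 10 were lower and none higher. The comparison rests on 51 cells with a median of 7889 UMIs against 1361 in the others, and it was not made within deep cells. With 3 UMIs added to each group alike the counts were 669 higher and 218 lower, so their balance depends on the rule.

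Cells with a trbc1 UMI were set against the few without. In the thymus 1216 genes were at least 2-fold higher and 432 lower with trbc1 (16.9% and 6.01%), and the interval left out 1 for 411 and 332 of them. The cells without trbc1 numbered 144, with a median of 790 UMIs against 1397 in those with it, and with 3 UMIs added to each group alike the counts were 158 higher and 1274 lower. Of 10 measured genes of the recombination stage, 8 were higher and none lower (rag1, rag2, cd4-1, cd8a, cd8b, rorc, arpp21 and ccr9b), each with an interval above 1, with a median log2 ratio of 1.43 beside 0.235 over all genes. Of 7 receptor complex genes, zap70, a kinase of receptor signalling, was higher. Of 7 macrophage genes 6 were lower and 1 higher, and all 4 keratinocyte genes measured were lower. The most reduced genes were lygl1, 34.6 times lower, sftpbb, 22.1 times lower, and ctss2.2, a cathepsin gene, also 22.1 times lower.

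In the marrow 598 genes were at least 2-fold higher and 431 lower with trbc1 (16.4% and 11.9%). Of 8 receptor complex genes 7 were higher and none lower, and all 11 genes measured of a mature T cell list were higher. Of 10 NK or cytotoxic genes 7 were higher and 2 lower. All 7 erythroid, 3 B cell and 6 neutrophil genes measured were lower, and the reduced genes were led by lyz and lect2l of neutrophils and the light chain gene igl3v5 of B cells. In the scale 47 genes were higher and 31 lower (4.02% and 2.65%), none of 7 receptor complex genes reached 2-fold, and all 4 keratinocyte genes were lower, with krt5 643 times lower in cells with trbc1. Other cell types thus make up part of the cells without trbc1 in each library, and their share in the gene counts was not tested.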

How the data were processed

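The deposited matrices from 10x Genomics droplet libraries give counts of UMIs for each gene and barcode, not normalized. The authors' counting software was cellranger 6.0.0 for the thymus and scale and Cell Ranger 4 for the marrow, per the file headers. The submitters' processing notes name Cell Ranger 6.0.0, Seurat 4.3.0 and the GRCz11 build. How the counting assigned reads shared by near-identical receptor segments, or used strand, is not given in the sources used here, so segment levels are uncertain. No genome of the files' build was used, so no sequences or coordinates are given.

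Cells had at least 500 UMIs, 250 genes and at most 10% mitochondrial UMIs. Marrow barcodes also passed a minimum set from the largest 3000 barcodes (their percentile 99 divided by 10). Scrublet called 0 thymus, 0 marrow and 16 scale barcodes, which were removed, so doublets are not controlled in the thymus and marrow. The libraries held 12405147, 4987653 and 1279044 UMIs in cells. Status means at least 1 UMI.

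Levels have exact Poisson, shares Clopper-Pearson and ratios conditional binomial 95% intervals. A count of 0 was given a limit of 3 counts. UMIs of 1 cell are not independent draws of a condition. Genes with at least 100 UMIs were called past 2-fold after adding 3 UMIs in proportion to each stratum's total. The rule had added 3 to each stratum alike; it was replaced after seeing that this favoured small strata, and the closing section gives both. Printed ratios have no addition.

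Clusters (scanpy 1.11.5) used 2000 variable genes without the members and 108 other receptor segments, 30 components, 15 neighbours and Leiden resolution 1. Clusters were named from the marker list that had most genes seen in 20% of their cells, with at least 3 required. Named genes were the 5 with the largest ratio each way, seen in at least 5% of cells, the 5 most alike per member, and list genes; 1 gene that this rule names is not reported here. The members, lists and tests were chosen with earlier results of these data known. The procedures were tested on simulated data, in which comparisons with a small group of cells (trbc1 and trgv7 in the thymus, trdc in the marrow) also called genes made without a change, so their counts of genes can be too high.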

Additional observations from a re-analysis of the deposited data

Results flagged for a closer look

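The level of trbc1 in cells with over cells without a trdc UMI lay on opposite sides of 1 in the 2 larger libraries: 0.497 (0.481–0.514) in the thymus and 1.16 (1.05–1.29) in the marrow. The difference between the libraries was not tested, since each tissue has 1 library. Median depth differed between the groups of cells in the thymus (6389 and 1301 UMIs) and little in the marrow (3928 and 4068 UMIs).

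Barcodes left out of the called cells also held the members. In the 205 marrow barcodes between 500 UMIs and the marrow minimum, trbc1 stood at 2757 CPM (2499–3034) and trdc at 72.6 CPM (36.2–129.8), 2.5 and 3.38 times the level of the called marrow cells. Marrow barcodes of 1 to 99 UMIs, which mostly hold no cell, had trbc1 at 950.03 CPM, 0.863 of the level of called cells, and trdc at 6.15 CPM (3.94–9.15). Among barcodes over the mitochondrial limit, trbc1 stood at 2667 CPM in marrow, 1829.7 CPM in thymus and 1460.4 CPM in scale barcodes, and thymus barcodes held trdc at 41.2 CPM (13.4–96.2).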

How the results depend on the processing

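With 1 library per tissue, no result has a replicate check, and trgv7 is limited by 72 UMIs in all. No paired analysis was possible because each tissue has 1 library. The values cover 221 alternatives of 26 ratios, 82 of 13 shares, 100 of 12 gene counts and 6 of 3 likeness lists. Of these, 184, 69, 73 and 3 held. Ratios and shares held when within counting error and counts when within 1.5 times. Likeness lists held when all or nearly all of their genes were kept. No ratio that had been called past 2-fold turned its direction, but ratios by rag1 did. Beside each moved value below, the cause was not tested unless the setting itself leaves fewer cells or genes. Settings on cells from 5000 UMIs, on cluster 11, on the classes of clusters, on cells with rag1, on rag1 within each coreceptor status and on the 3 added UMIs were chosen after seeing the data. The trgv7 ratio of cd4-1 alone over cd8b alone with status from 2 UMIs was not fitted because a group had no trgv7 UMI. The same held for the trgv7 ratio of rag1 in cells with both coreceptors. The trgv7 gene comparison with status from 2 UMIs was not fitted for want of cells.

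With each cell weighing the same, the trbc1 ratios were 3.59 for thymus over marrow, 4.74 for thymus over scale, 0.758 for scale over marrow, 0.533 for neither coreceptor over both, and 0.440 and 0.822 for il2rb in the thymus and marrow. The trdc ratios were 1.26 for thymus over marrow, 0.502 for rag1 and 4.81 for neither over both, and the trgv7 ratios were 0.422 for rag1 and 10.9 for neither over both. With status taken after thinning to 1000 UMIs, the trbc1 ratios were 2.14 for rag1, 0.279 for neither over both and 0.704 for il2rb in the thymus. The trdc ratios were then 0.503 and 4.20 for rag1 and for neither over both, and the trgv7 ratio of neither over both was 7.76. With a minimum of 1000 UMIs per cell, trbc1 gave 2.68 for thymus over marrow, 3.32 for thymus over scale, 1.41 for rag1 and 0.310 for neither over both. With status from 2 UMIs, trbc1 gave 1.13 for cd4-1 alone over cd8b alone and 0.472 for il2rb in the thymus. With CD8 status from cd8a or cd8b, it gave 0.949 for cd4-1 alone over cd8b alone and 0.322 for neither over both. With status from cd8b as before, trbc1 gave 0.302 for neither over both within cells with rag1. Within coreceptor status, the rag1 ratio turned its direction for trbc1 in cells with both (0.890) and neither (0.634) and for trdc in cells with both (4.97), cd4-1 alone (2.19) and cd8b alone (1.46), and trbc1 moved to 1.05 with cd4-1 alone and 1.18 with cd8b alone. Outside cluster 11 the trdc ratio for il2rb in the marrow was 0.628, and that of cytotoxic over T cell-like cells 0.339 in the marrow and 0.731 in the scale, where trbc1 gave 0.599 with each cell weighing the same.

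Thinned to 500 UMIs, trbc1 was seen in 80.2% of thymus, 43.7% of marrow and 41.1% of scale cells, trdc in 1.62% of thymus and 1.53% of marrow cells and trgv7 in 0.102% of marrow cells. trbc1 with trdc was then seen in 1.05% of thymus and 1.02% of marrow cells and trgv7 with trdc in 0% of thymus cells. Thinned to 5000 UMIs, the thymus shares were 1.84% for trbc1 with trgv7, 18.8% for trbc1 with trdc and 0.613% for trgv7 with trdc. Outside cluster 11, thinned to 1000 UMIs, trgv7 with trdc was at 0%.

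With a minimum of 50 UMIs per gene, the genes lower with trbc1 in the thymus were 869, those higher and lower were 418 and 1712 with trgv7, 124 and 875 with trdc, 898 and 866 with trbc1 in the marrow, 175 and 838 with trdc there, and 139 and 78 with trbc1 in the scale. With positive cells taken from 2 UMIs, 392 genes were higher with trbc1 in the thymus and 259 in the marrow, 137 higher and 534 lower with trdc in the marrow, and 8 higher and 17 lower with trbc1 in the scale. With 3 UMIs added to each group of cells alike, 158 were higher and 1274 lower with trbc1 and 669 higher and 218 lower with trgv7 in the thymus, 134 higher and 150 lower with trdc in the marrow, and 17 higher with trbc1 in the scale. These counts reverse the balance of higher and lower genes for trbc1 and trgv7 in the thymus, so neither balance is read as a result. With trdc, 7 were higher and 46 lower in thymus cells from 5000 UMIs, and 108 higher in the marrow outside cluster 11. Of the 5 genes most like trbc1, 2 were kept at Leiden resolution 0.5 and 2 with a pseudocount of 1, and 2 of those most like trdc with a pseudocount of 1.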

Other observations

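Other receptor segments were summed by family over all called cells. The 63 alpha or delta variable segments stood at 120.03 CPM in thymus cells, 77.4 CPM in scale cells and 44.7 CPM in marrow cells. The 38 alpha joining segments stood at 24.2, 53.9 and 14.6 CPM in the same order, so that they were highest in the scale, unlike the members; traj1 (BX681417.2 in the files) gave 259 of their 300 UMIs in the thymus, 63 of 69 in the scale and 62 of 73 in the marrow. The 5 other gamma variable segments stood at 11.5, 7.04 and 10.2 CPM, and the 2 delta joining segments had no UMI in any library.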
